A study of Mus musculus with 9 samples.

Results

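The cytokine genes of helper T cells were followed through resting, activated and TRAIL-treated activated mouse CD4+ T cells. They were taken by gene name, as Il2, Il3, Il4, Il10, Il13, Il21, Ifng, Tnf, Csf2 and Lif, and each name matched 1 gene, giving 10 of the 55487 genes listed. RNA-seq had been run on CD4+ T cells isolated by negative selection from spleens of wild-type C57BL/6 mice, described in the study's methods as Trail-r+/+ females 6 to 7 weeks old. There were 3 groups of 3 libraries. Cells of the medium group received neither antibody nor TRAIL, and the length of their culture was not given. The activated group was stimulated for 24 h with antibodies (Abs) to CD3, at 3 µg/ml, and to CD28, at 2 µg/ml, which engage the T cell receptor (TCR) complex and its costimulator. The TRAIL-treated activated group received both Abs and TRAIL at 10 µg/ml, a ligand of the tumor necrosis factor (TNF) family, for the same time. The question was how TRAIL changes the transcription of activated T cells, and here it was asked of the cytokine genes.

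Cytokines are the secreted signals by which CD4+ T cells direct other cells. A resting cell makes little of them, and engagement of the TCR and CD28 switches their genes on through NFAT, AP-1 and NF-kB, while lineage factors such as T-bet and GATA3 set which of them a cell can make. Many cytokine mRNAs are also short-lived, because adenylate- and uridylate-rich elements in the 3′ untranslated region (UTR) are bound by decay factors such as tristetraprolin.

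Every value is a deposited TPM, that is, a transcript count divided by transcript length and scaled to a common total. Levels can thus be set side by side between genes of a library. Between libraries a TPM is a share of all RNA measured, so it also depends on the levels of the other genes. What other scalings change is given in the last section. Genes with no signal were listed at 0.0001 TPM and are called listed at 0. Differences are between group means of log2(TPM + 1), with the standard error (SE) and the Benjamini-Hochberg adjusted p of limma over 15536 genes, and they understate the change of genes near 1 TPM. A gene was called higher or lower, and is said to have risen or fallen, where the adjusted p was under 0.05 and the difference was at least 1, that is, 2-fold on that scale. All 10 cytokine genes passed the filter of 1 TPM in at least 3 libraries, but Il2, Il3, Il13 and Csf2, 4 in all, reached 1 TPM in activated libraries alone and so had to differ. Read depth is unknown with TPM, and nothing said that libraries of a group came from separate mice or cultures, so p-values measure the spread between these libraries, which may be technical.

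The summed level of the 9 CD4+ T cell markers Cd3d, Cd3e, Cd3g, Cd4, Cd5, Cd28, Lck, Thy1 and Cd2 was 3231 to 3566 TPM in medium, 3101 to 3414 TPM after activation and 3153 to 3525 TPM with TRAIL. With activation Cd2 rose (difference 1.09) and Cd3g fell (-1.04), and the others were not called in any comparison. Markers of other cells moved with the groups. The 12 macrophage and monocyte markers summed to 1671 to 1838 TPM in medium, 41.6 to 48.4 TPM after activation and 1383 to 1553 TPM with TRAIL, and 12 of 12 were called lower after activation and 12 of 12 higher with TRAIL than without. The corresponding sums were 2540 to 2647, 196 to 217 and 1052 to 1195 TPM for 10 B cell markers, 736 to 1029, 30.9 to 47.3 and 438 to 538 TPM for 6 neutrophil markers, and 2081 to 2534, 24.8 to 39.6 and 610 to 660.4 TPM for 6 erythroid markers. They were 54.3 to 59.1, 9.67 to 13.3 and 33.2 to 35.5 TPM for 6 dendritic cell markers, 40.3 to 42.7, 17.0 to 19.1 and 31.8 to 33.9 TPM for 8 mast cell and basophil markers, and 24.2 to 30.7, 7.23 to 9.93 and 23.0 to 24.1 TPM for 4 markers of type 2 innate lymphoid cells. NK cell markers (7 genes) summed to 165 to 211, 47.2 to 48.2 and 60.0 to 63.3 TPM, and the pair of CD8 genes to 110.0 to 118, 94.2 to 105 and 46.9 to 49.4 TPM. The 4 regulatory T cell markers, which include the activation gene Il2ra, summed to 137 to 149, 975 to 1236 and 224 to 254 TPM. Within that list Il2ra (means 24.0, 868 and 23.2 TPM) and Ctla4 (65.4, 244 and 171 TPM) rose with activation. Foxp3 differed little (29.1, 25.5 and 25.1 TPM), and Ikzf2 fell with activation (24.2, 6.90 and 23.8 TPM). Zbtb46, a dendritic cell marker here, was highest after activation (2.44, 5.86 and 1.20 TPM). So was Il1rl1, of the type 2 innate lymphoid cell list (3.71, 7.08 and 1.91 TPM). Retnlg was listed at 0 in every activated library, and Calca in every medium and every activated one. Since these are bulk samples, fewer cells of a type and less RNA per cell cannot be told apart, and the part of these markers in the results was not tested beyond the values given beside them.

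The promoters of Il2, Il4, Ifng and Tnf are shown because these genes stand for the different patterns of the family, with Il2 and Il4 close to the medium level under TRAIL, Ifng in between and Tnf not lower. Each sequence is the 250 bases before the RefSeq start site on the gene's strand, in GRCm38.p6, with the core motif of NFAT (GGAAA, or TTTCC where it is on the other strand) in capitals.
Il2, chr3:37125955-37126204, minus strand: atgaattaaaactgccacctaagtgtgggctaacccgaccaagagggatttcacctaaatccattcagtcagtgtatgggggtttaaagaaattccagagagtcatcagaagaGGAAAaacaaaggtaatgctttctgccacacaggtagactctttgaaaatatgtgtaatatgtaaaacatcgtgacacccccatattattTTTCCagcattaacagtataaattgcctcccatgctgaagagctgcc
Il4, chr11:53618666-53618915, minus strand: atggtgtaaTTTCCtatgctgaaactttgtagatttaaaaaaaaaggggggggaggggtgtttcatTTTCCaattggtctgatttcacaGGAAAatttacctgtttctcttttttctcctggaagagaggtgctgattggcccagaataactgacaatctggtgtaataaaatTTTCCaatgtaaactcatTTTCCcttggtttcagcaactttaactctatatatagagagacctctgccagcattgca
Ifng, chr10:118440796-118441045, plus strand: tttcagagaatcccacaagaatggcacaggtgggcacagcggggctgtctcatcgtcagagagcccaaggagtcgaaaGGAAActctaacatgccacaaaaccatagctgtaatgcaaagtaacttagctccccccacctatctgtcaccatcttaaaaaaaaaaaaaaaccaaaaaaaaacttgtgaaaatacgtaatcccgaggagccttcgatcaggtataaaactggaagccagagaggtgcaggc
Tnf, chr17:35202008-35202257, minus strand: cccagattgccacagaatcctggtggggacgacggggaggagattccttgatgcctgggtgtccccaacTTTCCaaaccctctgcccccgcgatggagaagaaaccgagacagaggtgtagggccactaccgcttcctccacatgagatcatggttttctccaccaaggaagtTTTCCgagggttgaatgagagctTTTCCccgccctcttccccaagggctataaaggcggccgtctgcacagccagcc

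Of the 10 genes, 9 had an entry in the promoter table, Il10 being the one without. GGAAA on either strand was present in 9 of 9 of these windows, and in 55.6% of the 32851 promoter windows of the genome. Il4 held 5 matches, Il13 held 4, Il21 and Tnf held 3, Il2 and Csf2 held 2, and Ifng, Il3 and Lif held 1, where the median window held 1. The AP-1 motif TGANTCA was present in 1 of 9, that of Lif, and in 6.75% of all windows. The NF-kB motif (GGG, any 2 bases, then TTTCC), each match of which contains the other-strand form of GGAAA, was present in 0 of 9 and in 1.41% of all windows, which says only that these letters are not in these windows. TATAAA, read on the gene's strand, was present in Il2, Il13, Ifng and Tnf, 4 of 9, and in 7.59% of all windows. For Csf2 the RefSeq start lay 232 bases from the gene start of the GENCODE annotation, so its window may not be the one in use here.

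The 3′ UTRs of the same genes carry the pentamer ATTTA, the core of the adenylate- and uridylate-rich element. The windows of 30 bases with the most copies are shown for genes that fell with TRAIL (Csf2, Il2, Ifng and Lif) and for those that did not (Tnf and Il10), in GRCm38 and on the gene's strand, with each ATTTA in capitals.
Csf2, chr11:54247329-54247358, minus strand: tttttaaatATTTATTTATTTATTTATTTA
Tnf, chr17:35199679-35199708, minus strand: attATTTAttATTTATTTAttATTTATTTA
Il2, chr3:37121040-37121069, minus strand: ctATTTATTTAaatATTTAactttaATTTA
Ifng, chr10:118445330-118445359, plus strand: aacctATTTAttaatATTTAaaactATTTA
Lif, chr11:4272414-4272443, plus strand: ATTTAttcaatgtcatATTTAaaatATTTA
Il10, chr1:131024372-131024401, plus strand: cctcgtttgtacctctctccgaaatATTTA

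Csf2 had the densest copies of the family, with 9 in a 3′ UTR of 317 bases, or 2.84 per 100 bases. The median over 20738 genes was 0.125 per 100 bases, and the 95th percentile was 0.597. Il4 (1.92 per 100 bases), Il2 (1.20), Tnf (1.05), Il3 (0.990), Ifng (0.951) and Il10 (0.850) were also above that percentile, while Il13 (0.405), Il21 (0.349) and Lif (0.220) were below it. Neighbouring copies that shared an A occurred in 3 of 10, with 5 such pairs in Csf2, 2 in Tnf and 1 in Il2, against 6.08% of all genes. Genes with dense copies differed in how their bulk level changed with TRAIL, as Csf2 fell and Tnf did not. Macrophages are a source of Tnf as well, and their part in its level was not tested.

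Activation raised this gene family and TRAIL lowered most of it. The summed level of the 10 genes was 33.6, 35.8 and 37.4 TPM in the medium libraries, 899.9, 869 and 809 TPM after activation, and 100.2, 118 and 133 TPM with TRAIL. No library of any group reached the range of another, the means being 35.6 ± 1.88, 859 ± 46.0 and 117 ± 16.2 TPM (SD, n = 3 each). After activation 9 of 10 genes were called higher than in medium, where 12.4% of all genes tested were, and 10 of 10 had activated libraries wholly above the medium ones, where 29.9% of all genes did. With TRAIL 8 of 10 were called lower than after activation alone, against 14.3% of all genes, and the same 8 had TRAIL libraries wholly below the activated ones, against 34.9%. Of these, Il2, Il3, Il13 and Csf2 count for little, since the filter kept them through their activated level. Among the other 6 genes 5 were called higher with activation and 4 lower with TRAIL. Compared with medium, Lif, Il10, Ifng and Tnf, 4 of 10, were called higher with TRAIL, against 2.49% of all genes, and these and Il13, 5 of 10, had TRAIL libraries wholly above the medium ones, against 12.4%. Each pair of these comparisons shares 1 group of libraries and is not independent. The median difference over the 10 genes was 4.29 on the log2 scale for activation, -3.28 for TRAIL against activation and 0.54 for TRAIL against medium, and over all genes it was -0.15, 0.011 and -0.18.

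**Figure D1:**
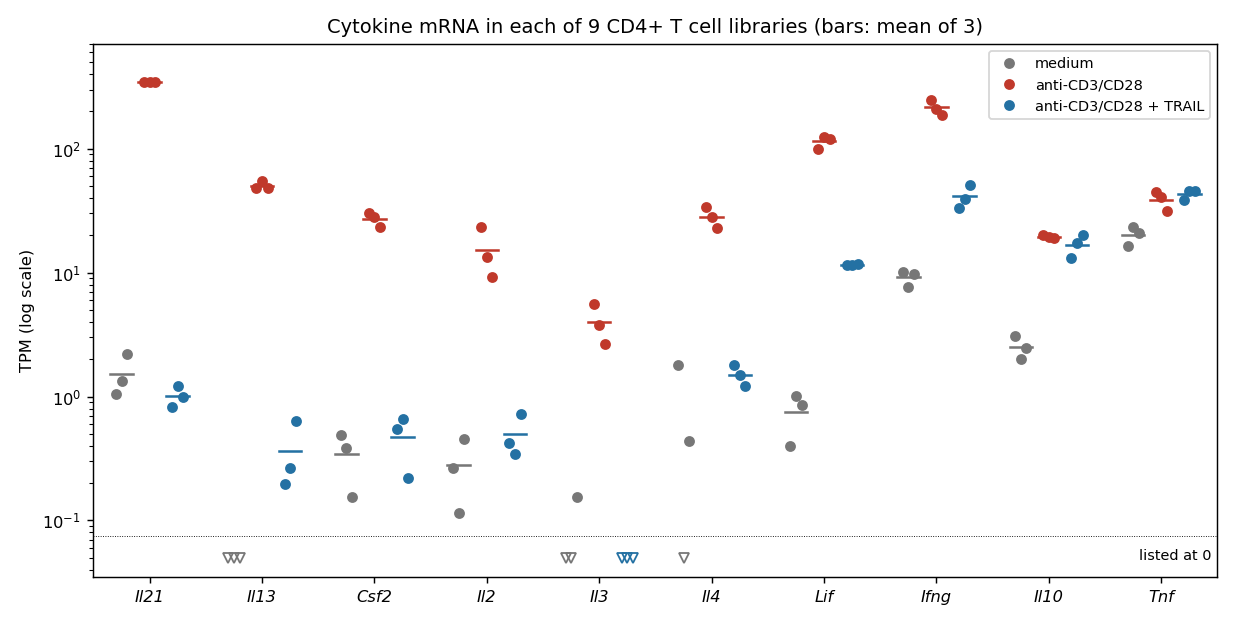
TPM on a log axis for the 10 cytokine genes in each of the 9 libraries, with a bar at the mean of 3 where no library of the group was at 0 and open triangles for libraries listed at 0. The activated points lie above the medium points for every gene, and the TRAIL points lie among or near the medium ones for Il21, Il2, Il3, Il4 and Csf2, between the groups for Il13 (listed at 0 in medium), Lif and Ifng, and around the activated ones for Il10 and Tnf.

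Il21 and Il2, neighbours on chromosome 3, encode cytokines that signal through the common gamma chain. IL-21 is a helper signal for B cells and IL-2 a growth factor for T cells. Il21 (ENSMUSG00000027718, chr3:37222759-37232636, minus strand) was at 1.05, 1.34 and 2.19 TPM in medium, at 345, 346 and 346 TPM after activation and at 0.830, 1.22 and 0.995 TPM with TRAIL. The activated libraries stood alone, and those with TRAIL overlapped with medium. Its increase of 7.13 (SE 0.16, adjusted p = 3.0e-10) and its fall with TRAIL, a difference of -7.43 (SE 0.16, adjusted p = 3.5e-10), each ranked 1 of 15536 genes. The TRAIL mean was 0.293% of the activated mean, and against medium the difference was -0.31 (SE 0.16, adjusted p = 0.164). An annotated antisense gene, Gm12534 (chr3:37231333-37232469, plus strand), lies within Il21 and was at 60.4, 68.3 and 75.1 TPM after activation, at 0.195 TPM in 1 medium library, at 0.353 TPM in 1 TRAIL library and listed at 0 in the other 4. Whether the counting used strand was not given, so the reads of the pair cannot be told apart.

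Il2 (ENSMUSG00000027720, chr3:37120523-37125959, minus strand), whose promoter is shown above, was far lower than its neighbour. It was at 0.265, 0.116 and 0.452 TPM in medium, 23.3, 13.3 and 9.27 TPM after activation and 0.420, 0.345 and 0.718 TPM with TRAIL. Every activated library was above all others, although they differed among themselves, and the medium and TRAIL libraries overlapped. The mean rose 55.1-fold with activation, with a difference of 3.59 (SE 0.27, adjusted p = 1.1e-06). With TRAIL it was 3.23% of the activated mean (difference -3.36, SE 0.27, adjusted p = 1.8e-06), and 0.23 from medium on the log2 scale (SE 0.27, adjusted p = 0.550). The 2 neighbours differed in how well the activated libraries matched. The coefficient of variation (CV) was 47.1% for Il2 and 0.160% for Il21, where the median over 9085 genes with an activated mean of at least 10 TPM was 11.1% and the 5th and 95th percentiles were 2.07% and 33.0%. A CV as high as that of Il2 was seen in 1.14% of these genes, and one as low as that of Il21 in 0.0330%.

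Il4 and Il13, 12.7 kb apart on chromosome 11, are the cytokines of type 2 helper cells, which act on B cells, epithelium and macrophages through receptors that share IL-4Rα. Il4 (ENSMUSG00000000869, chr11:53602982-53618669, minus strand) was at 1.78 and 0.439 TPM in medium replicates 1 and 3 and listed at 0 in replicate 2. It was at 34.1, 28.1 and 22.8 TPM after activation and 1.80, 1.49 and 1.22 TPM with TRAIL. The activated libraries did not overlap with any other, whereas medium replicate 1 lay within the TRAIL range. Il4 rose by 4.19 (SE 0.32, adjusted p = 1.1e-06) and with TRAIL was at 5.30% of the activated mean (28.3 ± 5.62 against 1.5 ± 0.286 TPM; difference -3.54, SE 0.32, adjusted p = 4.0e-06). Against medium TRAIL-treated cells differed by 0.65 (SE 0.32, adjusted p = 0.140), a value that medium replicate 1 decides, since without it the difference was 1.05 and was called.

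Il13 (ENSMUSG00000020383, chr11:53631324-53634702, minus strand) was the gene with no signal in any medium library. It was listed at 0 in all 3, was at 48.4, 54.8 and 47.8 TPM after activation, and was at 0.198, 0.267 and 0.633 TPM with TRAIL. The groups did not overlap, and no fold is given against medium, where the adjusted p was 5.9e-10 for activation. With TRAIL the mean was 0.727% of the activated mean, 0.366 ± 0.234 against 50.4 ± 3.88 TPM. The difference was -5.24 (SE 0.14, adjusted p = 1.1e-09), the fall that ranked 11 of 15536. As with Il2, Il3 and Csf2, the filter kept Il13 through its activated level, so that a fall had to follow. TRAIL-treated cells were also above medium by the adjusted p (0.0374), but under the 2-fold threshold and below 1 TPM in every library.

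Il3 and Csf2, which lie 15.6 kb apart on the same chromosome, encode interleukin 3 and GM-CSF, growth factors for myeloid cells whose receptors share a beta chain. Il3 (ENSMUSG00000018914, chr11:54265303-54267277, minus strand) was at 5.58, 3.76 and 2.65 TPM after activation and listed at 0 in all 3 TRAIL libraries and in medium replicates 1 and 2, with 0.155 TPM in the third. It was therefore seen almost only after activation, at the lowest activated level of the family (4.0 ± 1.48 TPM). The adjusted p was 3.6e-06 for activation against medium (difference 2.21, SE 0.20) and 3.0e-06 for TRAIL against activation, with no fold given where a group was at 0. These calls rest on levels of a few TPM and were lost with a pseudocount of 5 TPM.

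Csf2 (ENSMUSG00000018916, chr11:54247271-54249667, minus strand), with the ATTTA cluster shown above, was at 0.493, 0.386 and 0.156 TPM in medium, 30.3, 28.0 and 23.4 TPM after activation and 0.546, 0.653 and 0.221 TPM with TRAIL. Activated libraries were again apart, and medium and TRAIL libraries overlapped. The mean rose 78.9-fold, a difference of 4.39 (SE 0.16, adjusted p = 7.0e-09). With TRAIL it was 1.74% of the activated mean (difference -4.26, SE 0.16, adjusted p = 1.1e-08) and differed from medium by 0.13 (SE 0.16, adjusted p = 0.583).

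Lif and Ifng fell with TRAIL and still stood above medium. Lif (ENSMUSG00000034394, chr11:4257557-4272514, plus strand), leukemia inhibitory factor of the IL-6 family, was at 0.402, 1.00 and 0.856 TPM in medium, 99.2, 124 and 119.6 TPM after activation and 11.5, 11.5 and 11.6 TPM with TRAIL. The 3 groups did not overlap. Lif rose 152-fold in mean TPM (difference 6.05, SE 0.15, adjusted p = 5.5e-10) and was lower with TRAIL by 3.19 (difference -3.19, SE 0.15, adjusted p = 3.5e-08). The TRAIL mean was 10.1% of the activated mean and 15.3 times the medium mean (difference 2.86, SE 0.15, adjusted p = 1.1e-06).

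Ifng (ENSMUSG00000055170, chr10:118441046-118445892, plus strand), the interferon of type 1 helper cells that activates macrophages, was at 10.2, 7.71 and 9.66 TPM in medium, 249, 210.4 and 188 TPM after activation and 33.2, 39.5 and 51.3 TPM with TRAIL. Its groups did not overlap either. It rose 23.5-fold (difference 4.41, SE 0.17, adjusted p = 8.7e-09), and with TRAIL was at 19.1% of the activated mean (difference -2.37, SE 0.17, adjusted p = 8.3e-07) and 4.5 times the medium mean (difference 2.04, SE 0.17, adjusted p = 2.9e-05). A further annotated gene within it on the same strand, Gm49751, was between 1.84 and 3.46 TPM in all libraries. NK cells and CD8 T cells are other sources of Ifng. The NK marker sum was lower after activation (47.2 to 48.2 TPM) and with TRAIL (60.0 to 63.3 TPM) than in medium (165 to 211 TPM). The sum of the CD8 genes was lower with TRAIL (46.9 to 49.4 TPM) than after activation (94.2 to 105 TPM), as Ifng was, and Cd8a was called lower. The part of these cells in the Ifng level was not tested.

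Il10 and Tnf were the members that TRAIL did not lower. Il10 (ENSMUSG00000016529, chr1:131019845-131024974, plus strand), a cytokine that restrains inflammation, was at 3.08, 1.99 and 2.47 TPM in medium, 20.1, 19.2 and 18.9 TPM after activation and 13.1, 17.2 and 20.2 TPM with TRAIL. The TRAIL libraries spread over and around the narrow activated range, and both groups were above medium. Il10 rose 7.72-fold with activation (difference 2.55, SE 0.16, adjusted p = 3.4e-07) and was 6.70 times medium with TRAIL (difference 2.34, SE 0.16, adjusted p = 8.7e-06). TRAIL and activation differed by -0.21 (95% interval -0.58 to 0.15, adjusted p = 0.274), and the interval leaves room for a modest decrease but not for one of 2-fold.

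Tnf (ENSMUSG00000024401, chr17:35199381-35202007, minus strand), the inflammatory cytokine of the same ligand family as TRAIL, had the highest level of the 10 genes in medium. It was at 16.4, 23.3 and 21.0 TPM there, 44.3, 40.8 and 31.4 TPM after activation and 38.6, 45.4 and 45.8 TPM with TRAIL. Activated and TRAIL libraries overlapped, and both were above medium. The difference was 0.91 for activation (SE 0.16, adjusted p = 5.3e-04), which missed the 2-fold threshold and was the 1 gene of the family not called, and it passed that threshold at 1.05 without activated replicate 3 and at 1.01 without medium replicate 2. With TRAIL it was 1.07 above medium (SE 0.16, adjusted p = 0.0011), a call that was lost without medium replicate 1 (0.93). TRAIL and activation differed by 0.16 (95% interval -0.19 to 0.52, adjusted p = 0.390), so that a 2-fold change in either direction lies outside the interval. Macrophages are a known source of both cytokines, and the macrophage and monocyte marker sum was 1383 to 1553 TPM in the TRAIL libraries against 41.6 to 48.4 TPM in the activated ones, with none of its 12 genes listed at 0 throughout a group. Its part in the Il10 and Tnf levels was not tested.

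**Figure D2:**
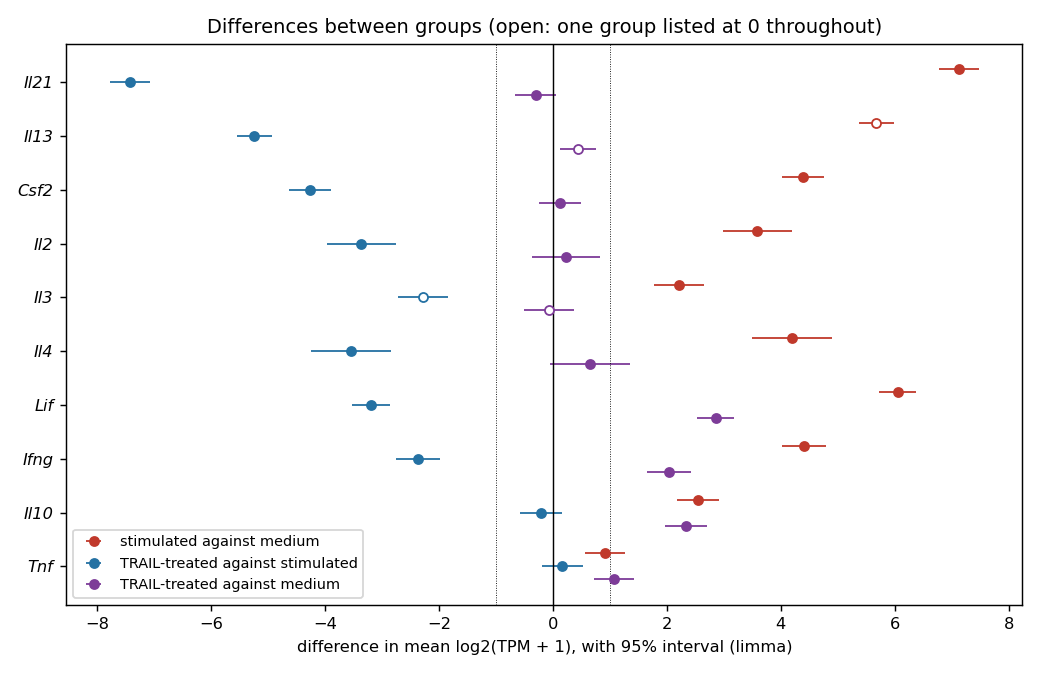
Difference in mean log2(TPM + 1) for the 10 genes in the 3 comparisons, with 95% intervals from limma and open symbols where 1 group was listed at 0 throughout. TRAIL against activation runs from -7.43 for Il21 to 0.16 for Tnf, and the intervals of Il10 and Tnf are those that include 0.

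Because the genes fell by different amounts, the make-up of cytokine mRNA differed between the groups. Il21 was 38.4% to 42.7% of the summed TPM after activation, and 0.750% to 1.03% with TRAIL. Tnf went the other way, from 48.7% to 65.0% in medium to 3.88% to 4.92% after activation and 34.5% to 38.6% with TRAIL. Ifng was 21.5% to 30.3%, 23.2% to 27.7% and 33.1% to 38.7% of the sum, but its order between activation and TRAIL turned when Il21 was left out. Of the sum without Il21, Ifng was 22.4% to 31.3% in medium, 40.2% to 45.0% after activation and 33.4% to 39.0% with TRAIL. Tnf, Ifng, Il10 and Lif, which were grouped after they were seen to be above medium with TRAIL, together were 89.3% to 94.9% of it in medium, 44.2% to 45.9% after activation and 96.2% to 97.1% with TRAIL, a share that the choice of these genes raises in the TRAIL libraries.

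**Figure D3:**
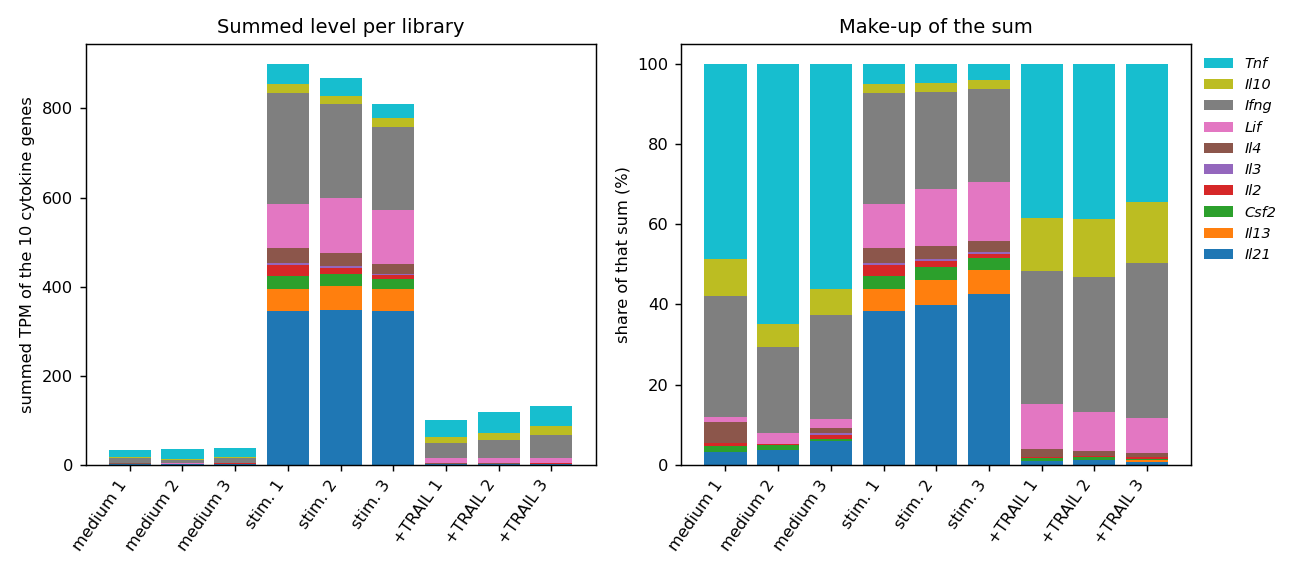
Summed TPM of the 10 cytokine genes in each library, stacked by gene (left), and the share of each gene in that sum in percent (right). Il21 takes 38.4% to 42.7% of the activated bars and at most 1.03% of the TRAIL bars, in which Tnf and Ifng take the largest shares.

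The balance of Ifng to Il4 and to Il2 was taken within each library as log2 of the ratio of TPM + 1. For Ifng to Il4 it was 2.84, 2.86 and 2.99 after activation and 3.61, 4.02 and 4.56 with TRAIL, and for Ifng to Il2 it was 3.37, 3.88 and 4.20 after activation and 4.59, 4.91 and 4.93 with TRAIL. Every TRAIL library was above every activated one in both ratios. The differences of 1.17 and 0.99 each had a two-sided exact permutation p of 0.1 (0.1 adjusted over both), the smallest that 3 libraries against 3 allow. With a pseudocount of 5 TPM the Ifng to Il4 difference shrank to 0.082 and that of Ifng to Il2 turned to -0.44, Il2 and Il4 being below that pseudocount in every TRAIL library, so the direction of the Ifng to Il2 difference depends on the pseudocount.

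The activated libraries did not differ alike in every gene. Activated replicate 1 was the highest of the 3 for 7 of 10 cytokine genes, against 27.3% of all genes tested, and activated replicate 3 the lowest for 8 of 10, against 21.4%. Lif and Il21, in contrast, were lowest in replicate 1. Across the 9 libraries the log2(TPM + 1) values of Il2, Il3, Il4, Il13, Il21 and Csf2, grouped here after their values were seen, had Pearson r of 0.96 to 0.99 with each other, and Tnf had r of 0.32 to 0.43 with them. Ifng and Lif had r of 0.99, and Il10 and Tnf r of 0.90. These are descriptions over 9 points that fall into 3 groups and share their libraries.

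Other cytokine genes of helper T cells moved in more varied ways. Of 30 listed, 28 passed the filter (Il7 and Il31 did not). Il5, Il9, Il17f, Il24 and Il27 reached 1 TPM in activated libraries alone and so had to differ. They count for little in the numbers that follow. Activation raised 17 and lowered 5, TRAIL compared with activation lowered 14 and raised 5, and TRAIL compared with medium raised 9 and lowered 0, against the backgrounds of 12.4%, 19.5%, 14.3%, 16.6%, 2.49% and 2.13% of all genes. Il22, whose product acts on epithelium, lies 231 kb from Ifng. It was at 0.0717 ± 0.0710 TPM in medium with 1 library listed at 0, 39.2 ± 5.26 TPM after activation and 1.70 ± 0.519 TPM with TRAIL (difference between the last pair -3.90, SE 0.16, adjusted p = 1.7e-08). Il24, 132 kb from Il10, was at 23.4 ± 3.47 TPM after activation and listed at 0 in every other library, unlike Il10 itself. Il5, the eosinophil growth factor 86.1 kb from Il13, was at 7.33 ± 0.458 TPM after activation, listed at 0 in all TRAIL libraries and in all but 1 medium library.

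Il6 (20.3 ± 4.70 TPM after activation, 2.11 ± 0.130 TPM with TRAIL) and the type 17 cytokine Il17a (13.1 ± 3.62 and 2.44 ± 0.821 TPM) fell by 2.76 and 2.03 on the log2 scale. Both subunits of IL-27 fell as well, Ebi3 from 63.7 ± 2.63 to 9.47 ± 1.10 TPM and Il27 from 6.47 ± 1.37 to 0.759 ± 0.152 TPM, and both had risen with activation. Among ligands of the TNF family, Tnfsf8, which encodes CD30 ligand, fell from 156 ± 5.54 to 19.8 ± 2.43 TPM, Lta, 1.16 kb from Tnf, from 80.2 ± 5.05 to 20.7 ± 1.35 TPM, and Tnfsf14 from 23.1 ± 2.32 to 9.30 ± 0.919 TPM. Lta thus fell by 1.90 (SE 0.11, adjusted p = 1.4e-07) where its neighbour Tnf did not. With a pseudocount of 5 TPM the falls of Tnfsf14 (-0.97) and Il27 (-0.99) with TRAIL and the rise of Tnfsf14 with activation (0.89) were not called, nor were Il6 (0.41), Il22 (0.40) and Il1a (0.65) against medium with TRAIL.

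The chemokines Ccl3 and Ccl4 behaved as Ifng and Lif did. Ccl4 was at 5.28 ± 0.395, 158 ± 38.7 and 47.2 ± 7.25 TPM in medium, activated and TRAIL-treated cells, called in all 3 comparisons (differences 4.63, -1.70 and 2.93), and Ccl3 was at 19.6 ± 2.86, 188 ± 28.8 and 71.0 ± 9.73 TPM (3.20, -1.39 and 1.80). Xcl1 rose from 7.98 ± 1.56 to 22.7 ± 3.98 TPM and was at 17.9 ± 3.38 TPM with TRAIL, which was not called against activation (difference -0.33, adjusted p = 0.12). Il1a (2.35 ± 0.455, 13.8 ± 0.963 and 6.58 ± 1.57 TPM) and Osm, which lies 16.5 kb from Lif (16.7 ± 1.73, 49.1 ± 0.961 and 30.4 ± 0.356 TPM), rose with activation, and their differences of -0.99 and -0.68 under TRAIL were short of 2-fold.

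The 5 that rose with TRAIL relative to activation included signals displayed on the T cell surface. Cd40lg, the ligand by which helper cells license B cells, fell from 104 ± 10.2 to 31.6 ± 2.25 TPM with activation and was at 196 ± 11.8 TPM with TRAIL (difference 2.59, SE 0.10, adjusted p = 1.2e-08). Tnfsf11, or RANKL, was at 8.27 ± 1.57, 4.28 ± 0.621 and 38.1 ± 2.73 TPM (TRAIL against activation 2.89, SE 0.15, adjusted p = 6.2e-08), and the death ligand Fasl at 12.7 ± 1.30, 10.4 ± 0.693 and 33.6 ± 5.53 TPM (1.59, SE 0.13). Areg, a growth factor for epithelium, was at 0.668 ± 0.0427, 0.960 ± 0.179 and 8.24 ± 0.509 TPM, and these 3 were above medium too. Il18 fell from 18.5 ± 0.912 to 0.822 ± 0.295 TPM with activation and was at 18.2 ± 2.38 TPM with TRAIL, the same course as the macrophage marker sum, whose part in it was not tested. Ltb (590.5 ± 12.1, 255 ± 16.6 and 322 ± 28.2 TPM), Il16 (237 ± 18.4, 108 ± 13.8 and 161 ± 25.9 TPM) and Il12a (12.6 ± 1.48, 5.67 ± 0.308 and 6.26 ± 0.456 TPM) fell with activation and were not called between activation and TRAIL. Tgfb1 (200.4 ± 31.2, 203 ± 20.1 and 177 ± 15.1 TPM) and Csf1 (4.97 ± 0.827, 10.7 ± 1.80 and 5.79 ± 0.947 TPM) were called in no comparison. The fall of Il12a was called at -1.03 and missed the threshold under 5 of 18 alternatives, with values down to -0.72.

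The receptors for these cytokines were read from the same fit. Of 19 receptor genes 18 passed the filter, and Il13ra2 was listed at 0 in all 9 libraries. Activation raised 3 and lowered 5 (12.4% and 19.5% of all genes), TRAIL compared with activation lowered 2 and raised 5 (14.3% and 16.6%), and TRAIL compared with medium raised 1 and lowered 0 (2.49% and 2.13%). The 2 that fell with TRAIL, or 11.1% of the list and thus near the background, were chains of the IL-2 receptor. Il2ra, the alpha chain that gives high affinity, was at 24.0 ± 1.96 TPM in medium, 868 ± 126 TPM after activation and 23.2 ± 2.25 TPM with TRAIL (differences 5.11 and -5.16, SE 0.13 each, adjusted p = 6.2e-10 and 7.8e-10). Il2rb was at 99.5 ± 11.3, 299 ± 21.7 and 66.1 ± 7.43 TPM (1.58 and -2.16), while the common gamma chain Il2rg, at 697 ± 24.1, 526 ± 20.6 and 638 ± 22.6 TPM, was called in no comparison. Il21r, which pairs with it, was at 178 ± 22.4, 347 ± 47.8 and 277 ± 14.1 TPM (0.95 and -0.31, neither called).

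The receptors of Ifng and Tnf were higher with TRAIL than after activation. Ifngr1 was at 180 ± 12.9, 133 ± 10.5 and 297 ± 7.83 TPM (TRAIL against activation 1.15, SE 0.09, adjusted p = 1.8e-06) and Ifngr2 at 36.0 ± 0.727, 36.0 ± 0.772 and 90.8 ± 3.85 TPM (1.31, SE 0.08, adjusted p = 2.7e-07), Ifngr2 being also the receptor gene called above medium. Tnfrsf1a was at 32.9 ± 4.35, 18.8 ± 0.586 and 50.7 ± 1.54 TPM (1.38) and Tnfrsf1b at 53.5 ± 6.42, 38.4 ± 4.87 and 83.8 ± 6.68 TPM (1.11). Il6st, the signaling chain gp130 used by LIF, was at 77.5 ± 6.70, 27.1 ± 8.56 and 98.4 ± 10.2 TPM (-1.53 and 1.87, both called), and its partner Lifr at 2.34 ± 0.223, 0.216 ± 0.108 and 1.42 ± 0.379 TPM fell with activation. Several of these receptors are also expressed by macrophages, whose marker sum was lower after activation than with TRAIL, and its part in these differences was not tested.

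Il4ra rose from 149.7 ± 12.4 to 311 ± 44.4 TPM with activation (1.04, lost under 3 of 18 alternatives, with values down to 0.91) and was at 289.6 ± 23.1 TPM with TRAIL, a difference of -0.09 (adjusted p = 0.52), although Il4 itself fell. Il13ra1 (7.30 ± 0.411, 2.72 ± 0.332 and 4.86 ± 0.138 TPM), Il10ra (83.4 ± 0.251, 35.4 ± 3.83 and 55.6 ± 6.19 TPM) and Csf2ra (31.6 ± 3.50, 14.8 ± 1.15 and 28.4 ± 2.38 TPM) fell with activation and were not called between activation and TRAIL. The call for Csf2ra was lost under 4 of 18 alternatives and that for Il13ra1 and Lifr under 2 each. Il10rb (67.2 ± 5.66, 39.2 ± 0.993 and 41.5 ± 5.22 TPM), Il3ra (11.3 ± 1.26, 15.4 ± 0.463 and 8.95 ± 0.493 TPM), Csf2rb (17.3 ± 2.54, 13.9 ± 3.44 and 11.3 ± 0.410 TPM) and Csf2rb2 (4.62 ± 0.521, 6.19 ± 1.43 and 3.20 ± 0.501 TPM) were called in no comparison.

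**Figure D4:**
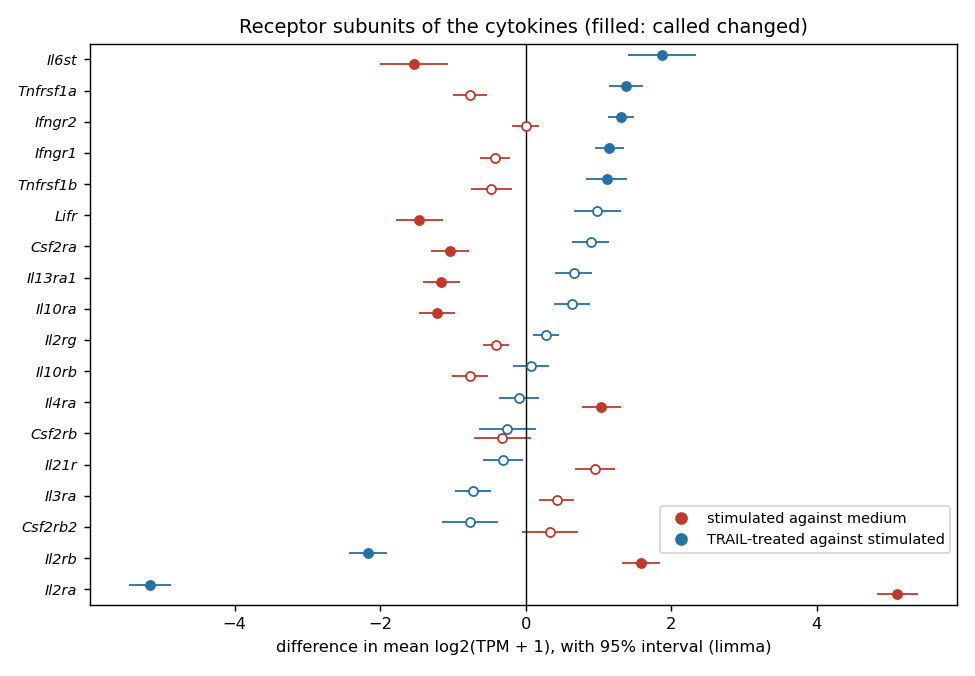
Difference in mean log2(TPM + 1) with 95% intervals for the 18 receptor genes tested, for activation against medium and TRAIL against activation, with filled symbols for called differences. Il2ra stands out on both sides, at 5.11 and -5.16, and the 5 filled TRAIL symbols to the right are Il6st, Tnfrsf1a, Ifngr2, Ifngr1 and Tnfrsf1b.

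All 35 transcription factors listed for cytokine genes passed the filter. Activation raised 14 and lowered 5 (12.4% and 19.5% of all genes), TRAIL compared with activation lowered 11 and raised 10 (14.3% and 16.6%), and TRAIL compared with medium raised 10 and lowered 0 (2.49% and 2.13%). Lineage and activation factors were among those that fell. Tbx21, which encodes T-bet and acts on Ifng, was at 13.4 ± 1.71 TPM in medium, 136 ± 12.1 TPM after activation and 10.9 ± 0.202 TPM with TRAIL (differences 3.26 and -3.53, SE 0.11 each, adjusted p = 4.1e-09 and 3.3e-09). Ifng, in contrast, stayed above medium with TRAIL. Gata3, the factor for Il4, Il5 and Il13, was at 32.3 ± 5.58, 99.7 ± 14.0 and 43.1 ± 4.54 TPM (1.60 and -1.19, SE 0.15 each), and Hlx, a partner of T-bet, at 3.32 ± 0.410, 14.4 ± 1.55 and 4.51 ± 0.629 TPM (1.84 and -1.49). Irf4, needed for most effector programs, was at 57.2 ± 3.69, 734 ± 136 and 183 ± 15.1 TPM (3.64 and -1.98) and was above medium with TRAIL (1.66, adjusted p = 2.7e-05). Batf (43.1 ± 6.31, 145 ± 10.7 and 62.3 ± 7.21 TPM) and Batf3 (4.07 ± 0.635, 29.6 ± 3.01 and 4.91 ± 1.22 TPM), its partners, fell by 1.20 and 2.39 with TRAIL.

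Nfkb1 (158 ± 17.0, 370.2 ± 71.9 and 134 ± 15.9 TPM), Myc (142 ± 15.1, 654 ± 59.7 and 196 ± 23.1 TPM), Runx3 (54.1 ± 7.99, 125 ± 38.7 and 57.8 ± 5.38 TPM), Prdm1 (6.35 ± 0.872, 14.1 ± 3.61 and 6.24 ± 0.737 TPM) and Fosl1 (0.0990 ± 0.167, 10.7 ± 2.94 and 2.76 ± 0.475 TPM) also rose with activation and fell with TRAIL. The TRAIL calls were lost under 5 of 18 alternatives for Runx3 and under 4 for Prdm1, and the activation call of Prdm1 under 4 as well (down to 0.74), each including leaving out activated replicate 2. With a pseudocount of 5 TPM the Fosl1 fall was -0.997 and not called, nor was that of Batf (-0.99) under quantile normalization. Bhlhe40, a factor for Csf2 and Ifng, was at 42.3 ± 5.36, 219 ± 28.6 and 119 ± 8.38 TPM, which was above medium with TRAIL (1.47, adjusted p = 3.4e-05) and 0.87 under activation, short of 2-fold.

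Several immediate early genes were higher with TRAIL than after activation. Fos, a subunit of AP-1, was at 322 ± 30.6 TPM in medium, 6.97 ± 1.56 TPM after activation and 478 ± 33.0 TPM with TRAIL (differences -5.36 and 5.93, SE 0.15 each, adjusted p = 1.0e-09 and 7.8e-10). Jun (193 ± 29.4, 153 ± 15.2 and 502 ± 34.5 TPM), Junb (1069 ± 57.9, 557 ± 15.6 and 2192 ± 154 TPM) and Fosl2 (6.52 ± 0.799, 86.6 ± 19.4 and 203 ± 12.5 TPM), further AP-1 subunits, were higher with TRAIL than after activation by 1.71, 1.97 and 1.25, and higher than in medium by 1.39, 1.03 and 4.77. The Junb call against medium was lost under 3 of 18 alternatives, with values down to 0.76. Egr1 (108 ± 19.1, 93.6 ± 20.0 and 568 ± 60.7 TPM) and Egr3 (53.2 ± 9.32, 57.5 ± 6.50 and 226 ± 17.0 TPM), induced by TCR signals, were higher with TRAIL by 2.60 and 1.96, and Egr2 (17.8 ± 2.90, 85.6 ± 7.45 and 141 ± 13.9 TPM) was above medium by 2.93 and above activation by 0.71, short of 2-fold. Rel, the NF-kB subunit tied to Il2, was at 51.2 ± 2.20, 36.4 ± 7.27 and 110.5 ± 2.28 TPM (TRAIL against activation 1.60, SE 0.13, adjusted p = 2.7e-06). Thus the TRAIL libraries held low Il2 with high Fos, Jun, Junb and Rel mRNA. Bcl6 (33.3 ± 3.38, 6.74 ± 1.35 and 35.3 ± 2.71 TPM), the factor of follicular helper cells, and Maf (28.9 ± 3.00, 12.6 ± 1.03 and 30.9 ± 1.77 TPM), a factor for Il4, Il10 and Il21, fell with activation and were higher with TRAIL by 2.24 and 1.24. The fall of Maf with activation (-1.14) lost its call under 2 of 18 alternatives, at -0.95 and -0.94. These genes too are expressed by macrophages and B cells, whose marker sums were lower after activation than in the other groups, and the part of those cells was not tested.

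The NFAT genes, whose motif all 9 promoters held, varied less. Nfatc1 (117 ± 19.3, 108 ± 30.6 and 99.4 ± 11.2 TPM) and Nfatc2 (29.8 ± 5.25, 26.5 ± 8.60 and 29.2 ± 3.21 TPM) were called in no comparison, and Nfatc3 (155 ± 10.3, 65.9 ± 15.7 and 134 ± 15.6 TPM) fell with activation by 1.25 and was 1.04 higher with TRAIL, a call lost under 3 of 18 alternatives, at 0.82 without activated replicate 1. Pou2f1, which encodes Oct-1, fell with activation (18.3 ± 1.77, 8.45 ± 3.24 and 16.6 ± 1.76 TPM) with a call that was lost under 3 of 18 alternatives (-0.77 without activated replicate 1, -0.82 with a pseudocount of 5 TPM and -0.84 with quantile normalization). The following were called in no comparison either, Jund (467 ± 47.0, 577 ± 42.2 and 807 ± 40.9 TPM), Rela (91.2 ± 14.2, 143 ± 19.7 and 95.5 ± 8.72 TPM), Eomes (21.2 ± 0.777, 11.3 ± 1.68 and 13.1 ± 1.35 TPM), Stat4 (95.5 ± 10.9, 53.7 ± 1.80 and 89.0 ± 2.34 TPM), Stat6 (199 ± 12.0, 166 ± 36.3 and 156 ± 18.7 TPM), Ahr (6.86 ± 0.966, 8.36 ± 1.84 and 10.5 ± 0.499 TPM), Ikzf1 (356 ± 40.0, 216 ± 41.6 and 341 ± 44.7 TPM) and Ets1 (783 ± 74.98, 485 ± 90.7 and 692 ± 101 TPM).

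**Figure D5:**
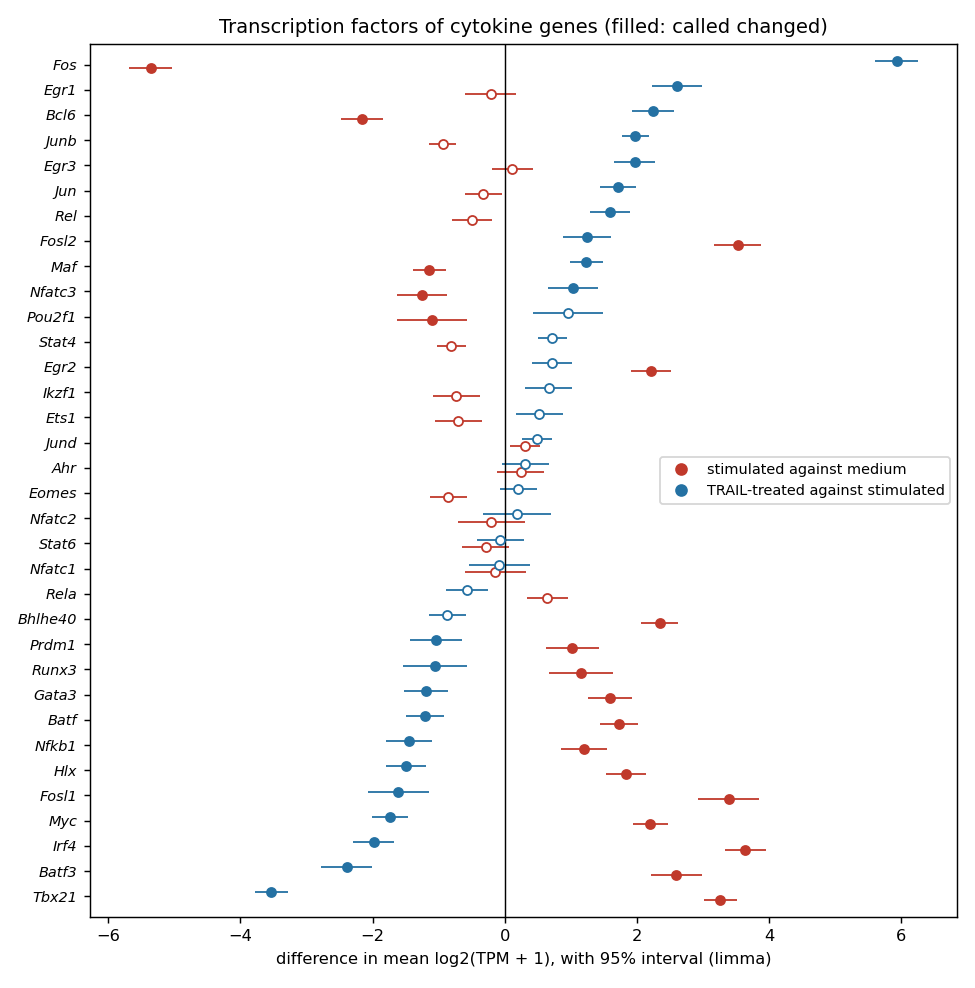
Difference in mean log2(TPM + 1) with 95% intervals for the transcription factor genes named here, for activation against medium and TRAIL against activation, with filled symbols for called differences. Tbx21, Irf4, Batf3 and Myc lie to the right for activation and to the left for TRAIL, and Fos lies far on the opposite sides, at -5.36 and 5.93.

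Factors that control the decay of mRNA were listed next, of which only some, such as tristetraprolin and its relatives, bind ATTTA. All 16 listed passed the filter. Activation raised 3 and lowered 2 (12.4% and 19.5% of all genes), TRAIL compared with activation raised 4 and lowered 3 (16.6% and 14.3%), and TRAIL compared with medium raised 2 and lowered 0 (2.49% and 2.13%). With 16 genes these counts lie too near the background to say anything of the list as a whole. Zfp36, which encodes tristetraprolin, was at 378 ± 56.6 TPM in medium, 86.3 ± 7.65 TPM after activation and 485 ± 14.1 TPM with TRAIL (differences -2.11 and 2.48, SE 0.12 each, adjusted p = 1.1e-07 and 4.0e-08). Its relatives were also higher with TRAIL than after activation, Zfp36l2 at 476 ± 53.9, 127 ± 10.3 and 856 ± 25.3 TPM (TRAIL against activation 2.74, SE 0.10) and Zfp36l1 at 441 ± 58.7, 242 ± 33.5 and 592 ± 17.9 TPM (1.29, SE 0.13). Zfp36l1 was not called against medium after activation (-0.86). Zc3h12a, or Regnase-1, an endonuclease of cytokine mRNAs, was at 26.1 ± 3.71, 22.9 ± 2.41 and 69.7 ± 2.24 TPM (1.57, SE 0.12), and above medium by 1.39. Its relative Zc3h12d went the other way (36.5 ± 1.92, 102 ± 15.2 and 24.9 ± 2.06 TPM), as did Hnrnpd, which encodes AUF1 (241 ± 20.0, 611 ± 59.3 and 255 ± 28.6 TPM), and Khsrp (98.1 ± 14.1, 163 ± 28.9 and 67.3 ± 10.3 TPM), which fell with TRAIL by 1.98, 1.26 and 1.26. Arid5a, which protects such mRNAs, rose from 65.6 ± 6.59 to 272 ± 78.5 TPM and was at 206 ± 15.0 TPM with TRAIL, above medium by 1.64. As with Fos, the Zfp36 genes were lowest after activation, as the macrophage and B cell marker sums were. Between medium and TRAIL the means of Fos and the Zfp36 genes were higher with TRAIL, while both marker sums were lower. The part of those cells was not tested. Rc3h1, Rc3h2, Elavl1, Tial1, Cnot1, Cnot6 and Cnot7 were called in no comparison.

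The genes beside the cytokine loci were read to see how far the changes extended. Of 24 neighbours in the table, 6 of which are the cytokine genes Il5, Il22, Il24, Lta, Ltb and Osm already given, 19 passed the filter. Activation raised 9 and lowered 3 (12.4% and 19.5% of all genes), and TRAIL compared with activation lowered 8 and raised 2 (14.3% and 16.6%). Compared with medium, TRAIL raised Il22 alone. In these numbers Il5, Il24 and Fgf2 count for little, since the filter kept them through their activated level. Around Il21 and Il2, Bbs12 (4.05 ± 1.02, 19.9 ± 1.02 and 1.68 ± 0.477 TPM) and Fgf2 (0.913 ± 0.328, 5.10 ± 0.935 and 0.335 ± 0.269 TPM) rose with activation and fell with TRAIL by 2.98 and 2.20. With a pseudocount of 5 TPM the Fgf2 differences were 0.77 and -0.92, and neither was called. On the far side of Il2, 4932438A13Rik went the other way (92.5 ± 1.16, 45.8 ± 19.5 and 86.6 ± 10.7 TPM), but without activated replicate 1 the differences of -1.11 and 1.00 became -0.69 and 0.59 and neither was called. The TRAIL call was also lost with a pseudocount of 5 TPM (0.93) and without TRAIL replicate 1 (0.91). Adad1, which overlaps with Il2 on the opposite strand, was at most 0.391 TPM.

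Beside Il4 and Il13, the housekeeping genes of the type 2 locus were called in no comparison, Rad50 at 35.7 ± 1.63, 56.8 ± 15.1 and 29.5 ± 3.94 TPM and Kif3a at 7.71 ± 0.740, 15.0 ± 1.75 and 7.97 ± 0.252 TPM. Their differences under TRAIL, -0.89 and -0.83, pointed down. Irf1 (231 ± 8.85, 455 ± 49.5 and 436 ± 59.1 TPM), Slc22a5 (13.1 ± 0.527, 8.20 ± 0.269 and 14.6 ± 0.962 TPM) and P4ha2 (1.41 ± 0.493, 2.89 ± 0.780 and 2.90 ± 1.15 TPM), on the same chromosome, were not called either. Not called does not mean unchanged here. Rad50, Kif3a, Irf1 and P4ha2 had activated libraries wholly above the medium ones, as 29.9% of all genes did. Their activated means were 1.59, 1.95, 1.98 and 2.05 times the medium means in TPM. Slc22a5 had activated libraries wholly below the medium ones. Beside Lif, Castor1 rose and fell (8.47 ± 2.32, 32.1 ± 1.74 and 7.64 ± 1.03 TPM), beside Il10 so did Mapkapk2 (56.5 ± 5.84, 171 ± 4.49 and 54.1 ± 2.85 TPM), whereas Il19 and Il20 were listed at 0 in all libraries. Beside Tnf, Lst1, a myeloid gene, fell with activation and was higher with TRAIL (16.6 ± 3.34, 1.95 ± 1.08 and 14.1 ± 2.91 TPM), and Nfkbil1 was not called (19.8 ± 2.13, 23.6 ± 0.774 and 17.2 ± 1.97 TPM). Mdm1 beside Ifng was not called (11.6 ± 1.10, 8.22 ± 1.26 and 10.7 ± 1.02 TPM).

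The genes most like the 10 were looked for by correlation with their mean standardised level over the 9 libraries, among 9076 other genes with an activated mean of at least 10 TPM. The 5 with the highest Pearson r were Mrfap1 (0.998), Rgs16 (0.998), Higd1a (0.997), Hnrnpa1 (0.996) and Il22 (0.995). Rgs16, a regulator of G protein signaling, had means of 4.97, 52.3 and 11.2 TPM in medium, activated and TRAIL-treated cells, and Higd1a, a mitochondrial protein gene, of 10.8, 76.0 and 18.6 TPM. Hnrnpa1, which encodes an RNA-binding protein, had means of 518, 1521 and 705 TPM, and Mrfap1 of 143, 247 and 172 TPM, so that a high r went with small as well as large folds. In all, 377 genes, or 4.15%, had r of at least 0.95, and the cytokine genes themselves had r from 0.62 for Tnf to 0.98 for Ifng with a mean that includes them.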

How the data were processed

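RNA-seq libraries had been made from 9 samples of splenic CD4+ T cells. Per the submitters' processing notes, Trimmomatic 0.36, HISAT2 2.1.0, SAMtools 1.2, StringTie 2.1.2 and DESeq2 were used. By the study's methods, the authors used Trimmomatic for quality control, HISAT2 for alignment to GRCm38 and DESeq2 for normalization of counts. The notes list the human build GRCh38, while gene identifiers and positions in the table are those of the mouse build GRCm38. The deposited values are TPM per gene, made by the authors, 1000000 in total per library. The program that made them and its strand setting are not given in the sources used here. Depth is therefore unknown, and no count model was run.

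The 15536 genes that reached 1 TPM in 3 or more of the 9 libraries were analysed as log2(TPM + 1) with limma 3.58.1 (lmFit, contrasts.fit and eBayes with trend) in R 4.3.3, in 1 fit of 3 group means, with Benjamini-Hochberg adjustment over all genes tested. Calls needed an adjusted p under 0.05 and a difference of at least 1. Ratios of Ifng to Il4 and Il2 were compared with exact permutation tests. Scripts were checked on simulated data. The cytokine genes, the gene lists, the marker lists and the tests were chosen with earlier results of these data known. Named were the 10 cytokine genes, all listed receptors and transcription factors, other cytokines reaching 5 TPM in a group mean, mRNA decay factors that were called, neighbours that passed the filter, and the 5 genes most like the 10, except for a few listed genes that are not reported here. Alternatives changed the pseudocount, filter, scaling, fold threshold, trend and replicates. When a replicate was left out, the same genes were tested.

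Promoters came from RefSeq (GRCm38.p6) and 3′ UTRs from GENCODE M21 transcripts, both of GRCm38. Tables were read with Python 3.11.15, pandas 2.3.3 and numpy 2.4.6, and plots made with matplotlib 3.10.9.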

Additional observations from a re-analysis of the deposited data

How the results depend on the processing

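The counts of cytokine genes called stayed within 1.5 times of those reported in all 57 values under alternatives, and 528 of their differences kept side and direction, with 5 gaining and 4 losing a call. With a pseudocount of 5 TPM, the Il3 differences shrank to 0.82 for activation and -0.83 for TRAIL against activation, Tnf against medium with TRAIL to 0.94, none of them called, and the ratio of Ifng to Il2 reversed to -0.44. With 0.1 TPM, Il13 with TRAIL against medium became 2.11 and was called. Quantile normalization gave 1.05 for Tnf with activation, called. Leaving out 1 replicate moved Tnf from 0.77 to 1.05 for activation and from 0.93 to 1.18 for TRAIL against medium, and Il4 from 0.32 to 1.05 for TRAIL against medium. Over all genes 4959, 4800 and 718 were called for activation, TRAIL against activation and TRAIL against medium. These became 2946, 2883 and 332 with 5 TPM, 10678, 10420 and 5063 without a fold threshold, and 1167 for the last with 0.1 TPM. Il3 was not tested under the 5 TPM filter.

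Scaling by the median of ratios moved the median difference of all genes by 0.083, 0.083 and 0.17, and quantile normalization by 0.19, -0.061 and 0.14. The higher share of calls went from 38.8%, 53.8% and 53.9% to 43.9%, 59.4% and 74.2%, and to 52.1%, 48.6% and 70.6%. No call of a listed gene changed direction. Of 142 calls in 75 other listed genes, 112 held under all 18 alternatives. Runx3 with TRAIL against activation was -0.96 and -0.87 under these scalings. Same-numbered libraries did not deviate together (r from -0.31 to 0.29 over 9 pairs, 3 above 0.1), so numbers were not taken to pair them. With the replicate block 4960, 4802 and 714 genes and 9, 8 and 4 cytokine genes were called. TPM without depth limits all genes near 1 TPM.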
